A study of Mus musculus with 45 samples.

Results

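The 9 genes described here are the transcription factors Nfe2l2 (which encodes NRF2) and Nfe2l1 (NRF1), the NRF2 inhibitor Keap1, the repressor Bach1, the small MAF partners Mafg and Maff, and the sentinel targets Nqo1, Hmox1 and Osgin1. They were taken by gene symbol from the count table, in which they are 9 of 28454 listed genes, and each was read in all 45 libraries. The libraries are polyadenylated RNA of mouse mammary tumour cell lines, in 15 groups of a line and a medium with 3 cultures each. MYAZ16.1e, MYAZ12.3i and MYAZ6.6g (the MYAZ subtype) were isolated from mammary tumours of MMTV-cMYC mice, in which the mouse mammary tumour virus promoter drives MYC mainly in mammary epithelium, and Myc310 came from a mouse of this kind that bore several tumours. LM1, LM2 and LM3 (LM) were recovered from lungs after Myc310 cells had been placed in the mammary fat pad, and LM1-LM from lungs after LM1 cells had been placed there, with LM2-LM and LM3-LM given as biological replicates of it (together LM-LM). Another line is labelled as MYAZ12.3i with NDI1, the name of a yeast NADH dehydrogenase. All of these lines, controls included, carry the MYC transgene, Myc310 is a single line, and no line without it was compared. Cells were plated at 250000 per well, and after 24 h the medium was replaced. MYAZ16.1e, Myc310, LM1 and LM1-LM were kept for 6 h in control medium or in medium without cysteine and cystine (deprived, 12 libraries), and the other lines were measured in control medium alone, so that 33 libraries are controls.

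NRF2 is a basic leucine zipper factor that is held in the cytoplasm and passed to the proteasome by KEAP1, an adaptor of the CUL3 ubiquitin ligase whose cysteines react with oxidants and electrophiles. When KEAP1 is modified, NRF2 accumulates, pairs with a small MAF protein and binds antioxidant response elements in genes for glutathione synthesis, NADPH supply and detoxification. BACH1 pairs with the same small MAF proteins on overlapping sites and represses genes such as Hmox1 until heme releases it. NRF1 is a related factor of the endoplasmic reticulum that is cut and released when proteasome activity falls and is known for driving proteasome subunit genes. NRF2 and NRF1 are controlled to a large part after translation, which mRNA counts do not measure. Cystine is the oxidised, extracellular form of cysteine, the limiting amino acid for glutathione.

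Promoter sequences were matched by symbol in the RefSeq set for GRCm38.p6, which covers 250 bases before to 50 bases after each start site. It held 14 windows for 8 of the 9 genes, with no entry for Hmox1. The core of the antioxidant response element, TGACNNNGC on either strand, lay in 3 of these windows, 1 each of Nfe2l2, Mafg and Maff. By comparison it lay in 12.4% of all 32851 windows of this length. The 100-base stretches with the match are shown because they mark the regulators whose own start regions hold the element letters. Each is printed 5′ to 3′ on the strand of the gene, with the match in capitals, and in Mafg the element reads on the opposite strand (TGACCGTGC).
Nfe2l2, chr2:75704814-75704913, minus strand: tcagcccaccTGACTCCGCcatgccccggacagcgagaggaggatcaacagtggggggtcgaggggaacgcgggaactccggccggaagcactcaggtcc
Mafg, chr11:120633698-120633797, minus strand: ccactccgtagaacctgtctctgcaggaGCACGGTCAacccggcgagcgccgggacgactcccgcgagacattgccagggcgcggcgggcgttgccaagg
Maff, chr15:79346471-79346570, plus strand: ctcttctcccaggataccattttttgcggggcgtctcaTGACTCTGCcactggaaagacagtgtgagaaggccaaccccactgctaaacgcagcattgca
The matches begin 240 bases (Nfe2l2), 222 bases (Mafg) and 112 bases (Maff) before the start site. The core of the element bound by C/EBP and ATF factors, TGATGNAA, was found in none of the 14 windows and in 3.97% of all windows. A match of letters is a description and not a binding site, and windows without one say nothing of more distant elements. The windows of Nqo1 and Osgin1, which stand for the target genes here, held neither pattern as searched. The search fixed a C before the free letters N, so forms of the element with G in its place were not counted. Read on the opposite strand, the Osgin1 window does hold such a form. The other windows were not searched for it, so targets and regulators cannot be set apart by these counts.

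Reads counted on genes ranged from 19517859 to 29019988 per library, with a median of 22899900, so the least abundant of the 9 genes (Nqo1) rested on 50 to 528 reads per library. The 3 cultures of a line and medium are described in the study as technical replicates, and p-values of the deprivation and NDI1 comparisons therefore measure the spread between cultures of 1 line, while those of the subtype comparisons also hold the spread between lines of a subtype. No pair of cultures was close enough to be 1 library read again (chi-square per gene at least 2.258 in 45 pairs). Of the mammary epithelial markers, Krt8 and Krt18 were abundant, whereas Epcam and Cdh1 were under 1 CPM (read counts relative to TMM-scaled library size) in all control groups. Over the 4 deprived lines the summed epithelial markers were at 998 to 1376 CPM in control and 1326 to 1611 CPM in deprived cultures, and within each line they were higher in deprived medium without overlap (1083 to 1111 CPM against 1390 to 1431 CPM in LM1). The 5 leukocyte markers with a row summed to 5.62 to 13.7 CPM in control and 6.04 to 17.1 CPM in deprived cultures, nearly all of it Cd68, with Lyz2 at 0 in these 4 lines. The fibroblast markers summed to 1.26 to 10.0 CPM in control and 2.13 to 11.7 CPM in deprived cultures, the endothelial ones to at most 5.07 CPM and 5.02 CPM, and the alveolar ones to at most 7.2 CPM and 6.49 CPM. The highest endothelial and alveolar sums were in MYAZ16.1e, mostly from Kdr (mean 4.06 CPM in control) and Aqp5 (5.2 CPM). Within lines, leukocyte sums were higher in deprived medium without overlap in Myc310 (9.55 to 10.4 CPM against 11.7 to 13.5 CPM) and LM1 (9.3 to 10.0 CPM against 11.8 to 13.9 CPM), fibroblast sums in MYAZ16.1e (7.4 to 10.0 CPM against 10.6 to 11.7 CPM) and Myc310 (1.26 to 1.55 CPM against 2.13 to 2.56 CPM), and endothelial sums in LM1 (0 to 0.313 CPM against 0.325 to 0.373 CPM). Alveolar sums were lower without overlap in LM1 (0.713 to 1.2 CPM against 0.233 to 0.516 CPM) and LM1-LM (0.451 to 0.691 CPM against 0.0511 to 0.311 CPM). The part of these lists in the results below was not tested. In bulk RNA, fewer cells that express a gene and less of its RNA per cell cannot be told apart.

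Removal of cysteine and cystine for 6 h raised 7 of the 9 genes in each of the 4 lines and lowered Keap1. Hmox1, the heme oxygenase that degrades heme to biliverdin, carbon monoxide and iron, rose most, from 4.33-fold in MYAZ16.1e to 14.4-fold in LM1. Osgin1, an oxidative stress-induced growth inhibitor, followed with 3.3-fold to 9.49-fold. Nfe2l2, Nfe2l1, Bach1, Mafg and Maff rose by 1.22-fold to 2.7-fold. Nqo1, the quinone reductase that is the classical NRF2 target, did not rise in any line: it fell in Myc310, LM1 and LM1-LM, and in MYAZ16.1e it was at 18.9 CPM in control and 18 CPM in deprived cultures. At an adjusted p under 0.05 in edgeR's quasi-likelihood test, 8 of the 9 genes passed in MYAZ16.1e and 9 in each of Myc310, LM1 and LM1-LM. The background was high: of 13400 genes tested, 53.7% passed in MYAZ16.1e and 66.8% in Myc310, while LM1 had 71.1% and LM1-LM 72.4%. The corresponding shares of genes that passed and were higher were 26.6%, 32.8%, 35.8% and 36.5%, against 7 of the 9 genes in each line, and the shares that passed and were lower were 27.1%, 33.9%, 35.3% and 35.9%. The median log2 fold change of the 9 genes was 0.37, 0.72, 1.00 and 0.95 in the order of these lines, while that of all genes tested lay between -0.01 and 0.00.

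**Figure D1:**
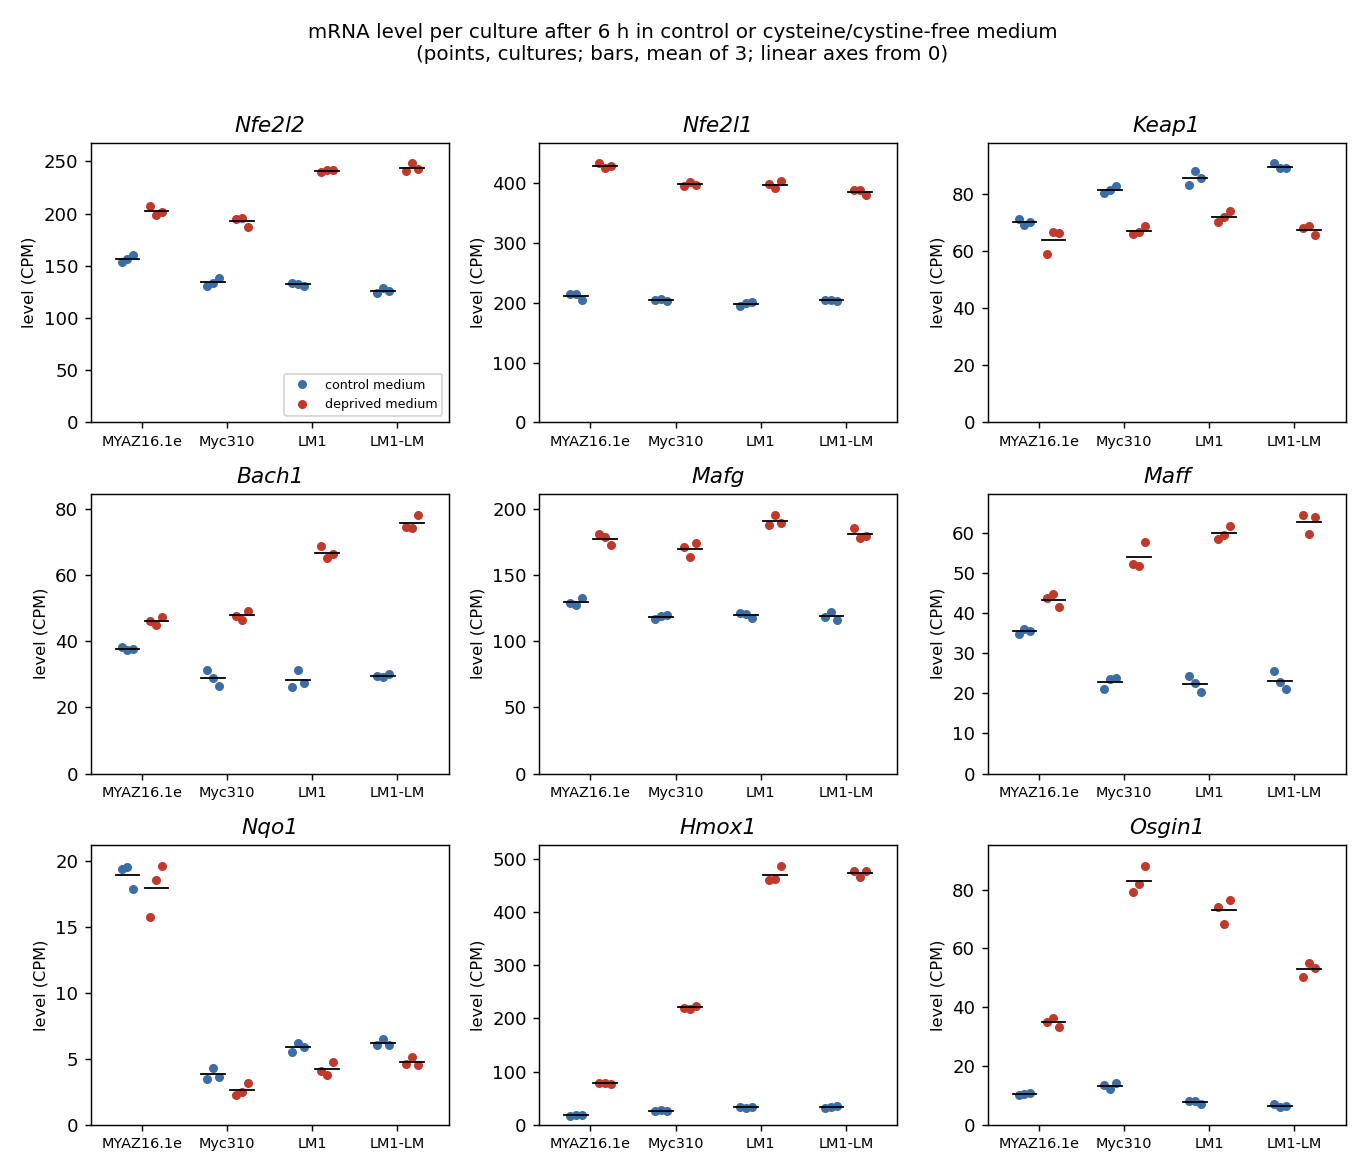
Level of each of the 9 genes in CPM (linear axes from 0) in every culture of the 4 deprived lines, with control medium in blue, deprived medium in red and bars at the mean of 3 cultures. The red points stand above the blue ones in every line for 7 genes and below them for Keap1, and Hmox1 runs from 17.8 CPM in control MYAZ16.1e to 473 CPM in deprived LM1-LM.

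Nfe2l2 (ENSMUSG00000015839, chromosome 2 from 75675513 to 75704641, minus strand, GRCm38) had 154, 157 and 160.3 CPM in the control and 208, 199 and 202 CPM in the deprived cultures of MYAZ16.1e. Myc310 had 131, 134 and 139 CPM in control and 195, 196 and 188 CPM in deprived medium. In LM1 the cultures gave 133, 133 and 131 CPM in control and 240.0, 242 and 241 CPM in deprived medium, and in LM1-LM 124, 129 and 125 CPM and 241, 248 and 243 CPM. The groups did not overlap in any line, and LM1 and LM1-LM reached higher deprived levels than the other two lines. Control levels were lowest in LM1-LM, while those of LM1 and Myc310 overlapped. The log2 fold change was 0.37 (standard error 0.0258, adjusted p = 3.02e-13) in MYAZ16.1e, 0.52 (standard error 0.0263, adjusted p = 4.17e-17) in Myc310, 0.87 (standard error 0.0263, adjusted p = 7.82e-23) in LM1 and 0.95 (standard error 0.0261, adjusted p = 5.7e-24) in LM1-LM. These and all adjusted p-values below are from the same edgeR test, adjusted by Benjamini-Hochberg over all genes tested.

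Nfe2l1 (ENSMUSG00000038615, chromosome 11 from 96817414 to 96829968, minus strand) rose by a similar factor in the 4 lines. It stood at 215, 214 and 205 CPM in control and 433, 425 and 429 CPM in deprived MYAZ16.1e. The values were 205, 206 and 202 CPM and 395, 402 and 397 CPM in Myc310, and 195, 199 and 202 CPM and 398, 391 and 404 CPM in LM1. LM1-LM had 204, 205 and 202 CPM in control and 389, 388 and 380.2 CPM in deprived medium. Over the 24 libraries the lowest deprived culture was thus above the highest control culture. The log2 fold changes were 1.02 ± 0.0227 (± standard error), 0.96 ± 0.0228, 1.00 ± 0.023 and 0.92 ± 0.0228 in the line order used above, with adjusted p-values of 9.22e-26, 2.55e-25, 7.08e-26 and 4.23e-25. Per kilobase of exon, Nfe2l1 and Nfe2l2 were at like control levels in LM1 (36.5 and 34.8 CPM per kilobase) and were the most abundant of the 9 genes there.

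Keap1 (ENSMUSG00000003308, chromosome 9 from 21229730 to 21239361, minus strand) fell slightly in all 4 lines. Its levels were 71.4, 69.4 and 70.4 CPM in control and 59, 66.9 and 66.4 CPM in deprived MYAZ16.1e, and 80.5, 81.6 and 82.9 CPM and 66.2, 66.8 and 68.8 CPM in Myc310. LM1 had 83.3, 88.3 and 85.9 CPM in control and 70.3, 72 and 74.1 CPM in deprived medium, and LM1-LM 90.9, 89.2 and 89.1 CPM and 68.3, 69 and 65.8 CPM. In MYAZ16.1e the groups came close to each other, with 1 deprived culture lower than the others. The log2 fold change was -0.13 (standard error 0.0391, adjusted p = 0.00482) in MYAZ16.1e, -0.28 (standard error 0.0386, adjusted p = 1.99e-07) in Myc310, -0.25 (standard error 0.0386, adjusted p = 8.72e-07) in LM1 and -0.41 (standard error 0.0383, adjusted p = 6.14e-11) in LM1-LM. Without the cultures numbered 1, the MYAZ16.1e change was -0.07 (adjusted p = 0.183) and did not pass. Keap1 shares 510 of its 4693 exonic bases with Gm16754, an annotated antisense gene, and the strand setting of the counting is not given in the sources used here, so reads from that stretch may belong to either gene.

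Bach1 (ENSMUSG00000025612, chromosome 16 from 87698945 to 87733346, plus strand) rose in all 4 lines, less in MYAZ16.1e than in the others, and LM1 and LM1-LM did not differ past the threshold. The cultures of MYAZ16.1e had 38.4, 37.2 and 37.6 CPM in control and 46.2, 45 and 47.4 CPM in deprived medium, and those of Myc310 31.4, 28.7 and 26.5 CPM and 47.7, 46.5 and 49.2 CPM. LM1 went from 26.1, 31.3 and 27.5 CPM to 68.6, 65.2 and 66.2 CPM, and LM1-LM from 29.6, 29.1 and 30.2 CPM to 74.4, 74.1 and 78.2 CPM. No groups of a line overlapped, and deprived LM1 and LM1-LM stood above deprived MYAZ16.1e and Myc310. The log2 fold changes were 0.29 ± 0.0529 (± standard error, adjusted p = 2.32e-05), 0.72 ± 0.0546 (adjusted p = 6.55e-13), 1.23 ± 0.0539 (adjusted p = 7.72e-19) and 1.35 ± 0.0524 (adjusted p = 3.29e-20), again from MYAZ16.1e to LM1-LM. Thus the mRNA of the repressor and that of Hmox1, a gene it is known to repress, both rose in each line.

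The small MAF proteins carry no activation domain of their own and serve as partners of both NRF2 and BACH1. Mafg (ENSMUSG00000051510, chromosome 11 from 120625117 to 120633600, minus strand) rose in all 4 lines. Control means lay between 119 CPM (Myc310) and 129.7 CPM (MYAZ16.1e), and deprived means between 169.9 CPM (Myc310) and 191 CPM (LM1). Its log2 fold changes were 0.45 ± 0.0287, 0.52 ± 0.029, 0.67 ± 0.0291 and 0.61 ± 0.0289 (± standard error) from MYAZ16.1e to LM1-LM, with adjusted p-values from 6.06e-19 to 3.1e-14. Mafg shares 124 of its 5613 exonic bases with Sirt7 on the same strand, where reads could be assigned to either gene. Maff (ENSMUSG00000042622, chromosome 15 from 79346621 to 79359076, plus strand) separated the lines more. It had 34.9, 36 and 35.5 CPM in control and 43.7, 44.8 and 41.4 CPM in deprived MYAZ16.1e, but 21.1, 23.6 and 23.7 CPM and 52.2, 51.7 and 57.7 CPM in Myc310. LM1 had 24.3, 22.7 and 20.3 CPM and 58.5, 59.4 and 61.6 CPM, and LM1-LM 25.7, 22.8 and 21 CPM and 64.5, 59.7 and 63.8 CPM. Maff thus began higher and ended lower in MYAZ16.1e than in the other 3 lines. The log2 fold change was 0.29 (standard error 0.0604, adjusted p = 0.000163) in MYAZ16.1e, 1.24 (standard error 0.0629, adjusted p = 4.48e-17) in Myc310, 1.42 (standard error 0.0635, adjusted p = 1.38e-18) in LM1 and 1.44 (standard error 0.0619, adjusted p = 4.69e-19) in LM1-LM.

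Hmox1 (ENSMUSG00000005413, chromosome 8 from 75093621 to 75100589, plus strand) had 16.4, 18.2 and 18.9 CPM in control and 78, 78.2 and 77.2 CPM in deprived MYAZ16.1e. Myc310 had 26.1, 28.2 and 26.6 CPM in control and 219.7, 218 and 224 CPM in deprived medium. The LM1 cultures gave 33.3, 32 and 32.7 CPM and 461, 462 and 487 CPM, and the LM1-LM cultures 31.7, 33.4 and 34.9 CPM and 477, 465 and 477 CPM. Every deprived culture stood above every control culture, and the deprived levels formed 3 steps, with LM1 and LM1-LM together on the highest. The log2 fold change was 2.11 (standard error 0.0432, adjusted p = 1.2e-26) in MYAZ16.1e, 3.03 (standard error 0.0372, adjusted p = 2.06e-32) in Myc310, 3.85 (standard error 0.0359, adjusted p = 1.77e-35) in LM1 and 3.83 (standard error 0.0353, adjusted p = 1.31e-35) in LM1-LM. Ranked by log2 fold change among the 13400 genes tested, Hmox1 was number 165 in MYAZ16.1e and 148 in Myc310, and LM1 and LM1-LM placed it at 121 and 115. Per kilobase of exon it passed from 18.7 to 268 CPM per kilobase in LM1, which made it the most abundant of the 9 genes in deprived LM1.

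Osgin1 (ENSMUSG00000074063, chromosome 8 from 119434124 to 119446256, plus strand) had 10.1, 10.6 and 10.9 CPM in control and 35, 36.5 and 33.4 CPM in deprived MYAZ16.1e. The Myc310 cultures had 13.7, 12.1 and 14.2 CPM and 79.3, 82 and 88.1 CPM, the highest deprived level of the 4 lines. In LM1 the values were 8.15, 7.99 and 6.94 CPM and 74, 68.4 and 76.6 CPM, and in LM1-LM 7.02, 6.16 and 6.45 CPM and 50.4, 55.2 and 53.2 CPM. The larger fold changes of LM1 and LM1-LM therefore started from lower control levels, and their deprived levels stayed under that of Myc310. The log2 fold change was 1.72 (standard error 0.0688, adjusted p = 4.19e-19) in MYAZ16.1e, 2.64 (standard error 0.0615, adjusted p = 1.65e-25) in Myc310, 3.25 (standard error 0.0694, adjusted p = 1.06e-26) in LM1 and 3.01 (standard error 0.0721, adjusted p = 1.73e-25) in LM1-LM. Its rank by log2 fold change was 262, 196, 164 and 186 in these lines.

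Nqo1 (ENSMUSG00000003849, chromosome 8 from 107388225 to 107403206, minus strand) stood apart from the other targets. MYAZ16.1e had 19.4, 19.5 and 17.9 CPM in control and 15.8, 18.5 and 19.6 CPM in deprived medium, and these groups overlapped. Myc310 had 3.51, 4.33 and 3.62 CPM in control and 2.24, 2.46 and 3.2 CPM in deprived medium. LM1 went from 5.55, 6.21 and 5.87 CPM to 4.08, 3.81 and 4.75 CPM, and LM1-LM from 6.04, 6.48 and 6.04 CPM to 4.59, 5.16 and 4.53 CPM. In the latter 3 lines the deprived cultures lay below the control cultures without overlap. The log2 fold change was -0.07 (standard error 0.0928, adjusted p = 0.565) in MYAZ16.1e, with a 95% interval of -0.26 to 0.12. It was -0.53 (standard error 0.143, adjusted p = 0.00171) in Myc310, -0.48 (standard error 0.126, adjusted p = 0.00112) in LM1 and -0.38 (standard error 0.121, adjusted p = 0.00565) in LM1-LM. Without the cultures numbered 2 the fall in Myc310 was -0.39 (adjusted p = 0.0789) and did not pass.

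**Figure D2:**
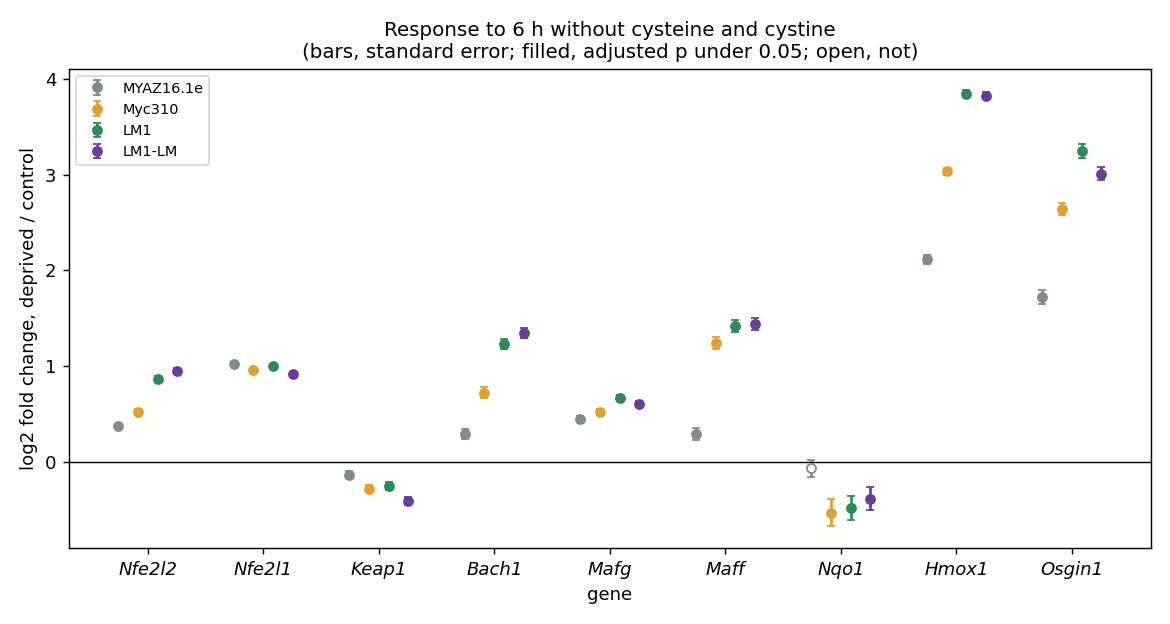
Log2 fold change of deprived over control medium for the 9 genes in MYAZ16.1e (grey), Myc310 (orange), LM1 (green) and LM1-LM (purple), with bars of 1 standard error and an open symbol where the adjusted p was not under 0.05. Nfe2l1 lies near 1 in each line, whereas Hmox1 runs from 2.11 to 3.85, and Nqo1 in MYAZ16.1e is the single open symbol.

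The next comparison asked whether the lines responded differently, by testing the difference between the log2 fold changes of a pair of lines. These contrasts share libraries, so they are not independent of each other. MYAZ16.1e was the only deprived line of low metastatic potential, and Myc310, LM1 and LM1-LM are 1 lineage, so metastatic potential and differences particular to MYAZ16.1e or to that lineage cannot be told apart. Hmox1, Osgin1, Maff, Bach1 and Nfe2l2 rose more in Myc310, LM1 and LM1-LM than in MYAZ16.1e. For Hmox1 the difference from MYAZ16.1e was 0.92 in Myc310 (adjusted p = 4.88e-13), 1.73 in LM1 (adjusted p = 4.95e-20) and, for LM1-LM, 1.71 (adjusted p = 3.45e-20). Osgin1 differed by 0.92 ± 0.0963, 1.52 ± 0.104 and 1.29 ± 0.106 (± standard error) in the same order, and Maff by 0.96 ± 0.0875, 1.13 ± 0.088 and 1.15 ± 0.0868. Bach1 differed by 0.43 ± 0.0761, 0.94 ± 0.0757 and 1.06 ± 0.0746, and Nfe2l2 by 0.15 ± 0.0369, 0.50 ± 0.0368 and 0.58 ± 0.0367. Of these 5 genes, the largest adjusted p was 0.0013, for Nfe2l2 in Myc310, and that call was lost without the cultures numbered 2 (0.13, adjusted p = 0.0624). Between 5 and 8 of the 9 genes passed in the contrasts that involve MYAZ16.1e or Myc310: 7 for Myc310 against MYAZ16.1e (40.3% of all genes tested), 7 for LM1 against MYAZ16.1e (52.2%), 8 for LM1-LM against MYAZ16.1e (54.8%) and 5 for LM1 against Myc310 (24.5%).

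For the other 4 genes, Nfe2l1, Keap1, Mafg and Nqo1, some differences between lines passed the threshold and others did not. Upper-quartile scaling moved the median difference of all genes from MYAZ16.1e by -0.03 for Myc310 and by -0.08 for both LM1 and LM1-LM on the log2 scale, so values under that scaling are to be read against these shifts. The responses of Nfe2l1 differed from that of MYAZ16.1e by -0.06 in Myc310 (95% interval -0.13 to 0.00), -0.02 in LM1 (-0.09 to 0.04) and -0.10 in LM1-LM (-0.17 to -0.04). Of these the LM1-LM value passed (adjusted p = 0.00664), but not without the cultures numbered 3 (-0.08, adjusted p = 0.0989), while with upper-quartile scaling the Myc310 and LM1 values passed as well (both -0.10, which includes the shift of all genes). The response of Keap1 differed from that of MYAZ16.1e by -0.15 in Myc310 (adjusted p = 0.0349) and, for LM1-LM, by -0.27 (adjusted p = 8.11e-05), and the LM1 difference of -0.12 did not pass (adjusted p = 0.0688). The Myc310 call of Keap1 was lost without the cultures numbered 2 (-0.09, adjusted p = 0.378) or 3 (-0.12, adjusted p = 0.229), and the LM1 value passed without those numbered 1 (-0.18, adjusted p = 0.0128). It also passed with RLE scaling (adjusted p = 0.0454), upper-quartile scaling (-0.20, adjusted p = 0.0029) and a minimum of 10 counts in every library (adjusted p = 0.029). The rise of Mafg exceeded that of MYAZ16.1e by 0.22 for LM1 (adjusted p = 3.77e-05) and by 0.16 in LM1-LM (adjusted p = 0.00163). The latter was lost without the cultures numbered 3 (0.11, adjusted p = 0.0763) and with upper-quartile scaling (0.07, adjusted p = 0.144). Nqo1 differed from MYAZ16.1e by -0.46 in Myc310 (adjusted p = 0.0314) and, for LM1, by -0.41 (adjusted p = 0.0274), while -0.31 in LM1-LM did not pass (adjusted p = 0.0829) except with upper-quartile scaling (-0.40, adjusted p = 0.0272). The Myc310 call of Nqo1 was lost without the cultures numbered 1 (-0.52, adjusted p = 0.061) or 2 (-0.31, adjusted p = 0.323) and the LM1 call without those numbered 2 (-0.31, adjusted p = 0.244) or 3 (-0.40, adjusted p = 0.0876). Without a filter on low counts, the Keap1 call of Myc310 (-0.14, adjusted p = 0.0825) and the Nqo1 calls of Myc310 (-0.46, adjusted p = 0.0683) and LM1 (-0.40, adjusted p = 0.0678) were lost, with the differences themselves nearly as before. In DESeq2 neither the Keap1 nor the Nqo1 difference of Myc310 passed (-0.14, adjusted p = 0.0584, and -0.46, adjusted p = 0.0553).

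Along the lineage from Myc310 to LM1, the responses of Hmox1 (0.81, adjusted p = 5.17e-12), Osgin1 (0.60, adjusted p = 3.26e-05), Bach1 (0.51, adjusted p = 9.39e-06) and Nfe2l2 (0.34, adjusted p = 3.57e-08) were larger in LM1. Mafg also passed (0.15, adjusted p = 0.00631), though not without the cultures numbered 2 (0.10, adjusted p = 0.192) or with upper-quartile scaling (0.11, adjusted p = 0.0588), which moved the median of all genes by -0.04 in this contrast. Maff did not pass here (0.17, 95% interval -0.01 to 0.36). Between LM1 and LM1-LM, 0 of the 9 genes passed in edgeR and 0 in DESeq2, against 0.769% of all genes tested. At an unadjusted p under 0.05 there were 4 in edgeR and 2 in DESeq2. The intervals of these differences were -0.13 to 0.09 for Hmox1, -0.04 to 0.27 for Bach1, 0.01 to 0.16 for Nfe2l2, -0.15 to -0.01 for Nfe2l1, -0.27 to -0.04 for Keap1, -0.46 to -0.01 for Osgin1 and -0.26 to 0.46 for Nqo1, so that the Nqo1 value was the least precise.

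**Figure D3:**
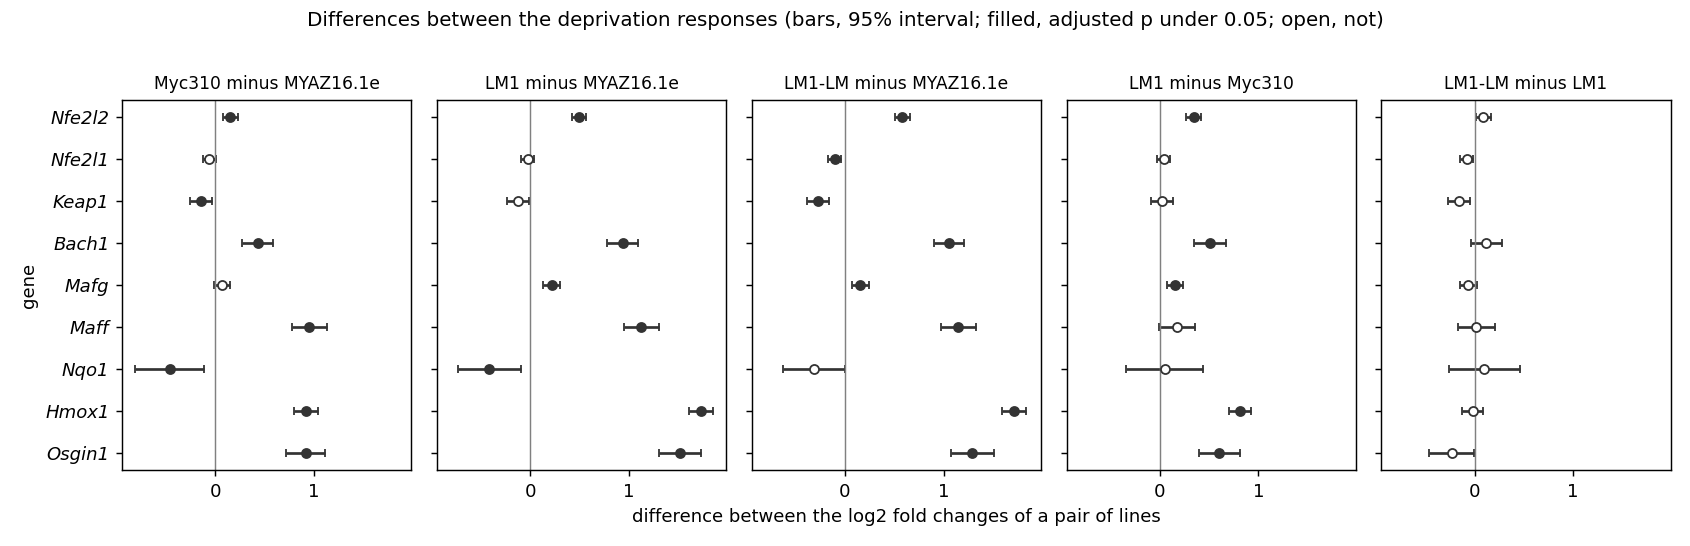
Difference between the log2 fold changes of a pair of lines for the 9 genes, with 95% intervals and an open symbol where the adjusted p was not under 0.05. In the 3 panels against MYAZ16.1e, Hmox1, Osgin1, Maff, Bach1 and Nfe2l2 lie to the right of 0, and in the panel of LM1-LM against LM1 all 9 symbols are open.

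Other genes of the pathway moved in both directions. Of the 30 antioxidant response genes listed for comparison, 29 could be tested, and among them 5, 6, 9 and 9 rose and 11, 18, 16 and 16 fell, in the line order from MYAZ16.1e to LM1-LM. Over all genes tested, 26.6%, 32.8%, 35.8% and 36.5% rose and 27.1%, 33.9%, 35.3% and 35.9% fell in these lines, and the counts of this list and of those that follow are to be read against these shares. Their median log2 fold change was -0.07, -0.21, -0.10 and -0.14, against -0.01 to 0.00 over all genes. Slc7a11, the cystine importer subunit xCT, rose most (3.42, 2.94, 3.98 and 3.93 on the log2 scale), from 10.3 to 162 CPM in LM1. Trim16, a ubiquitin ligase, rose by 0.71 to 0.96, and Srxn1, which repairs oxidised peroxiredoxins, was 0.70 higher in LM1 and 0.77 higher in LM1-LM. Mean Srxn1 went from 106 to 117 CPM in MYAZ16.1e and from 49.4 to 55.9 CPM in Myc310. Nqo1 had company among those that fell. Cbr1, a carbonyl reductase, changed by -0.47, -1.01, -0.91 and -0.96, and Gstm1, a glutathione transferase, by -0.38, -0.82, -0.68 and -0.78. Pgd of the pentose phosphate pathway fell by 0.84 on the log2 scale in Myc310. Its mean was also lower in deprived MYAZ16.1e (275 to 225 CPM), LM1 (255 to 163 CPM) and LM1-LM (259 to 164 CPM). Gsr, the glutathione reductase, changed by -0.82 in LM1 and -0.78 in LM1-LM. Mean Gsr was also lower in deprived MYAZ16.1e (123 to 103 CPM) and Myc310 (170 to 110 CPM).

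Another list held genes that act on the regulators, together with their relatives Nfe2l3, Mafk and Bach2. Of its 13 tested genes, 6 rose and 3 fell in MYAZ16.1e, 7 rose and 2 fell in Myc310, 7 rose and 3 fell in LM1, and 8 rose and 2 fell in LM1-LM, where 36.5% of all genes rose and 35.9% fell. Sqstm1, the autophagy receptor p62 that binds KEAP1, rose by 1.73, 2.86, 3.57 and 3.61 on the log2 scale, from 352 to 4171 CPM in LM1. Gsk3b, a kinase that marks NRF2 for another ubiquitin ligase, rose by 0.40 to 1.02. Ngly1, the glycanase that NRF1 needs for its activation, rose by 0.64 to 0.73. Dpp3, a peptidase that competes for KEAP1, changed by -0.14, -0.67, -0.78 and -0.86 from MYAZ16.1e to LM1-LM. Vcp, which extracts NRF1 from the endoplasmic reticulum, changed by -0.24, -0.53, -0.31 and -0.26 in the same order. All of these were past the threshold. Of the 31 proteasome subunits, 2 rose and 23 fell in MYAZ16.1e, 6 rose and 18 fell in Myc310, 11 rose and 14 fell in LM1, and 10 rose and 14 fell in LM1-LM. The share of all genes that fell was 27.1% in MYAZ16.1e and 35.3% in LM1. Their median log2 fold change was -0.16, -0.18, -0.05 and -0.02. Psmc6 rose by 0.16, 0.54, 0.70 and 0.75, whereas Psmd1 changed by -0.79, -0.79 and -0.76 in Myc310, LM1 and LM1-LM. In MYAZ16.1e mean Psmd1 went from 296 to 237 CPM. Of 4 tested heme and iron genes known to carry the BACH1-MAF element, 2 rose in each line and 1, 2, 1 and 2 fell, where 26.6% to 36.5% of all genes rose and 27.1% to 35.9% fell. Ftl1, the ferritin light chain, fell in MYAZ16.1e (-0.19) and rose in Myc310 (0.11), LM1 (0.50) and LM1-LM (0.50). Fth1, the ferritin heavy chain, rose in Myc310 (0.20), LM1 (0.31) and LM1-LM (0.27), and its mean went from 1798 to 1898 CPM in MYAZ16.1e. Slc48a1, a heme transporter, rose in MYAZ16.1e (0.12) and fell in Myc310 (-0.42), LM1 (-0.46) and LM1-LM (-0.61).

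In control medium, the 9 genes varied to different degrees over the 11 lines. The highest line mean was 6.57 times the lowest for Nqo1, 2.94 times for Osgin1, 2.37 times for Maff, 2.19 times for Hmox1, 1.68 times for Bach1, 1.57 times for Nfe2l2, 1.39 times for Mafg, 1.29 times for Keap1 and 1.19 times for Nfe2l1. Hmox1 split the lines by origin. It was at 17.8 ± 1.28 CPM (SD, n = 3 cultures here and below) in MYAZ16.1e, 17.9 ± 0.704 in the NDI1 line, 18.1 ± 0.127 in MYAZ6.6g and 18.7 ± 0.0711 in MYAZ12.3i, then 27 ± 1.13 in Myc310 and 27.6 ± 0.714 in LM3-LM. The remaining lines were higher, with 32 ± 1.04 CPM in LM3, 32.7 ± 0.681 in LM1, 33.3 ± 1.64 in LM1-LM, 36.1 ± 2.44 in LM2 and 39.1 ± 1.69 in LM2-LM. Among neighbours in this order, means lay further apart than the sum of their SDs between MYAZ6.6g and MYAZ12.3i, between MYAZ12.3i and Myc310 and between LM3-LM and LM3, and elsewhere did not differ beyond their spread.

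Nqo1 gave another order. MYAZ16.1e had 18.9 ± 0.93 CPM, MYAZ6.6g 12.2 ± 1.57 and LM3 9.08 ± 0.683, each apart from the next but LM3, which did not differ beyond its spread from the NDI1 line with 9.08 ± 1.53 CPM or MYAZ12.3i with 8.64 ± 1.01 CPM. LM3-LM had 7.46 ± 1.06 CPM, LM2 6.75 ± 0.26, LM1-LM 6.19 ± 0.256 and LM1 5.88 ± 0.326. Myc310 with 3.82 ± 0.446 CPM and LM2-LM with 2.88 ± 0.403 CPM were lowest and apart from each other and from LM1. MYAZ16.1e, among the lines with low Hmox1, thus had the highest Nqo1. Osgin1 did not follow subtype: LM3 (19.2 ± 0.693 CPM), LM3-LM (17.5 ± 0.979), MYAZ6.6g (16.6 ± 2.2), LM2 (15.7 ± 0.919), MYAZ12.3i (15.3 ± 0.815) and the NDI1 line (15.1 ± 0.905) were higher, and MYAZ16.1e (10.6 ± 0.386), LM2-LM (9.23 ± 0.699), LM1 (7.69 ± 0.66) and LM1-LM (6.54 ± 0.439) lower, with Myc310 (13.3 ± 1.07) in between. LM3 stood apart from LM3-LM, and from Myc310 down each mean lay further from the next than the sum of their SDs, although the cultures of LM1 and LM1-LM overlapped.

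Among the regulators, Maff was highest in the NDI1 line (53.2 ± 2.16 CPM), then in MYAZ12.3i (49 ± 1.67 CPM) and MYAZ6.6g (42 ± 0.716), and lowest in LM1-LM (23.2 ± 2.34), Myc310 (22.8 ± 1.49) and LM1 (22.4 ± 1.96), which did not differ beyond their spread. LM3-LM (37 ± 2.04), MYAZ16.1e (35.4 ± 0.547), LM3 (33.8 ± 0.941), LM2-LM (32.7 ± 2.63) and LM2 (30.9 ± 2.27) lay between. Bach1 was at 47.2 ± 0.859 CPM in the NDI1 line, 46.3 ± 1.13 in MYAZ6.6g, 44 ± 2.35 in MYAZ12.3i, 37.7 ± 0.597 in MYAZ16.1e and 36.1 ± 2.35 in LM3-LM, and the other 6 lines of the Myc310 lineage did not differ beyond their spread between neighbours, from 28.1 CPM in LM2 to 29.6 CPM in LM3. Nfe2l2 was at 198 ± 2.38 CPM in MYAZ12.3i, 195 ± 3.19 in the NDI1 line and 191 ± 4.91 in MYAZ6.6g, apart from the next lines, LM2 (158 ± 5.92) and MYAZ16.1e (157 ± 3.26). It was lowest in Myc310 (134 ± 4.01), LM1 (132 ± 1.32) and LM1-LM (126 ± 2.26). Mafg ranged from 94.2 ± 4.5 CPM in MYAZ6.6g to 131 ± 1.76 in LM2-LM, Keap1 from 70.4 ± 1.01 in MYAZ16.1e to 91 ± 1.24 in LM3-LM, and Nfe2l1 from 185 ± 2.34 in MYAZ6.6g to 220.4 ± 3 in LM3-LM.

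**Figure D4:**
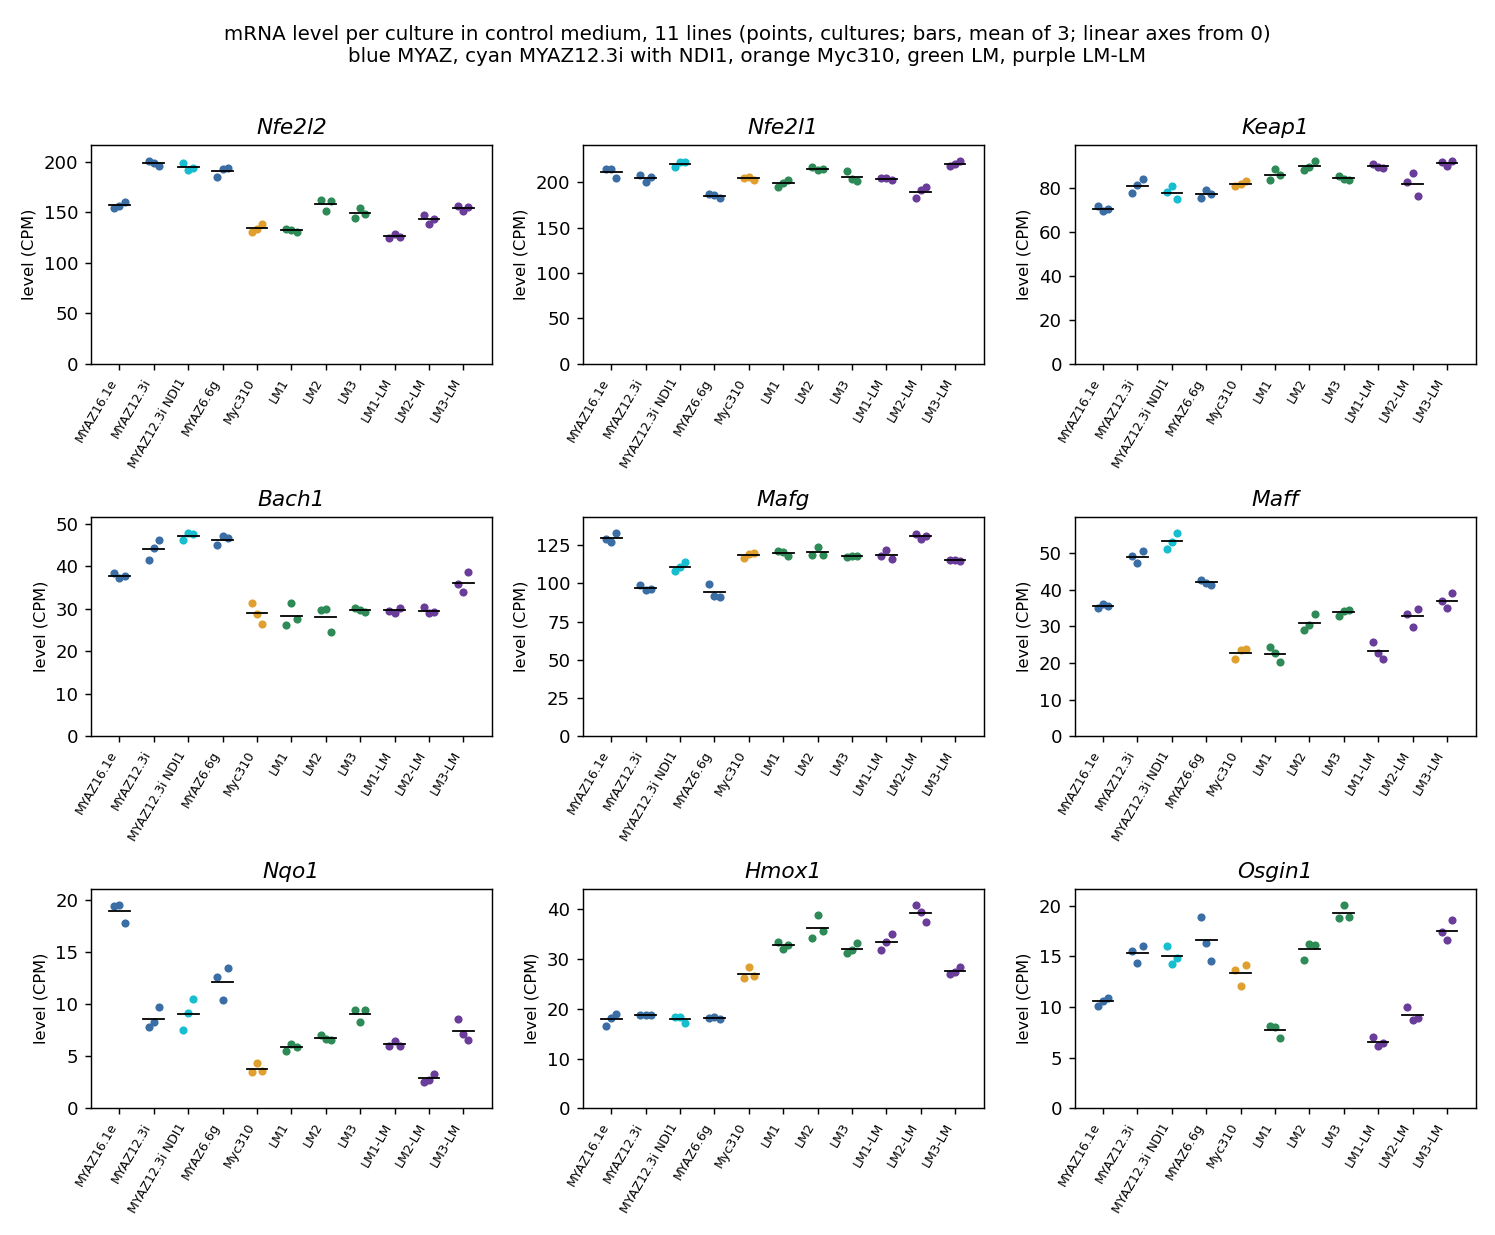
Level of the 9 genes in CPM (linear axes from 0) in each culture of the 11 lines in control medium, coloured by subtype, with bars at the mean of 3 cultures. The Hmox1 points of the MYAZ lines and of the NDI1 line lie below all points of the Myc310 lineage, and the Nqo1 means run from 18.9 CPM in MYAZ16.1e down to 2.88 CPM in LM2-LM.

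To compare lines taken as less and more metastatic, Myc310, LM and LM-LM were each tested against the same 9 MYAZ libraries. The model held the 30 control libraries with subtype alone. The paper counted lung metastases from tumours of MYAZ16.1e, Myc310 and LM1. It gives MYAZ12.3i, MYAZ6.6g, LM2 and LM3 as biological replicates of MYAZ16.1e and LM1. All lines taken as more metastatic belong to the Myc310 lineage, so metastatic potential and differences particular to that lineage cannot be told apart. The lines of LM and LM-LM are also not independent of each other in the fits and permutation tests that take the line as the sample. Hmox1 was higher in each of the 3 subtypes, and Nqo1, Maff, Bach1 and Nfe2l2 were lower. Over line means, Hmox1 was at 18.2 ± 0.448 CPM for MYAZ (mean ± SD of 3 lines) and 27 CPM for Myc310, a lone line, with 33.6 ± 2.22 CPM in LM and 33.3 ± 5.76 CPM in LM-LM. Against MYAZ this was a log2 difference of 0.55 (standard error 0.0941, adjusted p = 1.51e-05) for Myc310, 0.88 (standard error 0.0688, adjusted p = 4.8e-12) for LM and 0.86 (standard error 0.0688, adjusted p = 6e-12) for LM-LM. Nqo1 was at 13.3 ± 5.23 CPM in MYAZ, 3.82 CPM in Myc310, 7.24 ± 1.65 CPM in LM and 5.51 ± 2.36 CPM in LM-LM, with log2 fold changes of -1.81 (standard error 0.339, adjusted p = 5.9e-05), -0.88 (standard error 0.214, adjusted p = 0.000748) and -1.28 (standard error 0.216, adjusted p = 7.61e-06). Bach1 differed by -0.57, -0.58 and -0.44, Maff by -0.90, -0.54 and -0.45, and Nfe2l2 by -0.45, -0.32 and -0.37 on the log2 scale, in the order Myc310, LM and LM-LM. Keap1 was slightly higher in LM (0.18, adjusted p = 8.8e-05) and LM-LM (0.19, adjusted p = 3.68e-05), as was Mafg (0.15, adjusted p = 0.0449, and 0.18, adjusted p = 0.0192). In all, 5 of the 9 genes passed in Myc310 (50.9% of the 13795 genes tested), 7 in LM (60.8%) and 7 in LM-LM (62.8%).

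This model counts cultures of 1 line as independent. With counts summed per line, 0 of the 9 genes passed in Myc310 (5 at an unadjusted p under 0.05, while DESeq2 on single libraries gave 5), 2 in LM and 3 in LM-LM, and directions of the genes that had passed were kept. Summed in this way, Myc310 is 1 sample against 3, assumed to vary like the other subtypes, and the differences of the 5 genes that had passed were nearly as before (Nfe2l2 -0.43, Bach1 -0.54, Maff -0.88, Nqo1 -1.78 and Hmox1 0.57). The share of all genes that passed fell as well, to 8.92%, 23.6% and 26.4% of the 16017 genes tested in that fit. Hmox1 remained past the threshold in LM (0.89, adjusted p = 0.00226) and LM-LM (0.88, adjusted p = 0.00224), as did Bach1 (-0.56, adjusted p = 0.00924, and -0.41, adjusted p = 0.0293) and, in LM-LM, Nqo1 (-1.25, adjusted p = 0.0486). Nqo1 in LM (-0.86, adjusted p = 0.152), Maff (-0.52, adjusted p = 0.113, in LM and -0.43, adjusted p = 0.175, in LM-LM), Nfe2l2 (-0.30, adjusted p = 0.096, and -0.35, adjusted p = 0.0552), Keap1 (0.20, adjusted p = 0.0879, and 0.22, adjusted p = 0.0643) and Mafg (0.17, adjusted p = 0.365, and 0.20, adjusted p = 0.271) did not, with the differences of the last 4 genes nearly as before. When line means were compared by an exact permutation test (two-sided), 3 lines against 3 cannot give a p below 0.1. That smallest value was reached by Hmox1, Bach1 and Keap1 in LM and LM-LM, by Maff in LM and by Nfe2l2 and Nqo1 in LM-LM, of 18 tests. The Mafg call in LM was lost in DESeq2 (adjusted p = 0.0502), with RLE (0.0556) or upper-quartile scaling (0.06) and with a minimum of 10 counts in every library (0.0849), and both Mafg calls were lost when any replicate number was left out (adjusted p from 0.0511 to 0.164). They were also lost without MYAZ12.3i (adjusted p = 0.317 and 0.184) or MYAZ6.6g (0.42 and 0.247), in LM without any of its lines (up to 0.104) and in LM-LM without LM2-LM (0.162). With 1 line per subtype in the model (MYAZ16.1e, Myc310, LM1 and LM1-LM), Mafg passed in the other direction (-0.12, adjusted p = 0.00105, for LM1 and -0.13, adjusted p = 0.000369, for LM1-LM). Without MYAZ16.1e, Mafg passed in Myc310 (0.30, adjusted p = 3.29e-06), and without MYAZ12.3i Keap1 did (0.13, adjusted p = 0.0282). In limma-voom with the line as a block, Mafg in LM (0.16, adjusted p = 0.143) and LM-LM (0.19, adjusted p = 0.0781), Bach1 in Myc310 (-0.52, adjusted p = 0.0676) and Keap1 in LM (0.19, adjusted p = 0.0715) and LM-LM (0.19, adjusted p = 0.0577) did not pass, again with differences nearly as before. Marker lists moved with subtype too. The endothelial sum was 3.48 to 6.58 CPM in MYAZ against 0 to 0.921 CPM in the Myc310 lineage, and the alveolar sum was 5.71 to 19.3 CPM against 0.242 to 2.33 CPM, without overlap. In MYAZ the endothelial sum was nearly all Kdr (line means 4.06 to 6.3 CPM), with Pecam1 at 0.168 CPM or less. The alveolar sum there was mostly Aqp5 (line means 5.2 to 15.4 CPM), with Sftpc and Sftpb at 0. The epithelial sum was 335 to 1156 CPM against 998 to 2400 CPM, with overlap. The fibroblast sum was 84.2 to 88.4 CPM in MYAZ12.3i, 31.1 to 32.9 CPM in MYAZ6.6g and 7.4 to 10.0 CPM in MYAZ16.1e, against 1.26 to 23.4 CPM in the Myc310 lineage, and the leukocyte sum was 4.15 to 6.26 CPM in MYAZ against 9.3 to 19.3 CPM. In MYAZ12.3i the fibroblast sum was mostly Pdgfra (48.6 CPM) and Pdgfrb (33.6 CPM), with Thy1 at 0.0569 CPM and Dcn at 0.0727 CPM. The part of the marker lists in these differences was not tested.

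Nfe2l1 and Osgin1 passed in none of the subtype comparisons of the 30 libraries. The intervals for Nfe2l1 were narrow, -0.09 to 0.13 in Myc310, -0.04 to 0.12 in LM and -0.06 to 0.10 in LM-LM. Those for Osgin1 were wide, -0.76 to 0.56, -0.46 to 0.47 and -0.82 to 0.11, and its lines lay far apart within LM and LM-LM. Without LM3-LM its difference in LM-LM passed (-0.84, adjusted p = 0.00115). With 1 line per subtype, as above, Osgin1 passed against MYAZ16.1e in Myc310 (0.33, adjusted p = 0.00255), LM1 (-0.46, adjusted p = 0.000218) and LM1-LM (-0.70, adjusted p = 1.96e-06), and Nfe2l1 in LM1 (-0.09, adjusted p = 0.00309). Among the related lists, the antioxidant response genes had 7 members higher and 9 lower for Myc310, with 7 and 10 for LM and 9 and 10 for LM-LM, of 29 tested, with medians of -0.04, -0.03 and -0.02. Over all genes, 23.8% were higher and 27.1% lower in Myc310, 30.3% and 30.5% in LM, and 30.5% and 32.3% in LM-LM, with medians of -0.02, 0.00 and -0.01. The proteasome subunits had 2 members higher and 13 lower of 31 for Myc310, 5 and 13 for LM, and 8 and 11 for LM-LM, with medians of -0.08, -0.01 and 0.01. The list of genes that act on the regulators and of their relatives had 5 higher and 5 lower of 13 for Myc310, 6 and 3 for LM, and 5 and 4 for LM-LM, and the heme and iron genes had 0 and 1, 1 and 2, and 0 and 2 of 5.

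The MYAZ12.3i line labelled with NDI1 was compared with MYAZ12.3i. Mafg was at 99.2, 95.9 and 96.7 CPM in MYAZ12.3i and 108, 111 and 114 CPM in the NDI1 line, a log2 difference of 0.19 (standard error 0.0347, adjusted p = 0.00155). Nfe2l1 was at 208, 199.9 and 205 CPM and 217, 222 and 222 CPM, a difference of 0.11 (standard error 0.0273, adjusted p = 0.0129). These 2 of the 9 genes passed, with 17.4% of 12841 genes tested, and the Nfe2l1 call was lost when any replicate number was left out (adjusted p from 0.05 to 0.139). Hmox1 was at 17.9 ± 0.704 CPM in the NDI1 line, with a difference of -0.06 (95% interval -0.20 to 0.08), and Nqo1 at 9.08 ± 1.53 CPM, with 0.08 (-0.18 to 0.34). Marker sums moved too. In the NDI1 line the fibroblast sum was higher without overlap (94.3 to 98.9 CPM against 84.2 to 88.4 CPM in MYAZ12.3i). So was the epithelial sum (362 to 374 CPM against 335 to 347 CPM). The endothelial sum was lower (4.975 to 5.37 CPM against 6.44 to 6.575 CPM), and the leukocyte and alveolar sums overlapped. The part of these lists was not tested. Each side is a single line, so NDI1 and other differences between the lines cannot be told apart.

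Over the 15 groups of line and medium, the genes with the pattern most like that of each of the 9 were sought by Pearson's r of group mean log2 CPM among 9091 genes, as a description. The groups share lines and media. Hmox1 was closest to Hif1a (0.995), Sqstm1 (0.994) and Zfp655 (0.994), Nfe2l1 to Trib3 (0.981), D6Wsu163e (0.98) and Adar (0.979), and Mafg to Zkscan6 (0.983), Rars (0.97) and Nop14 (0.969). Osgin1 was closest to Marchf6 (0.983), Tcim (0.975) and Rimoc1 (0.961), Bach1 to Dapk3 (0.978), Stk17b (0.978) and Rhoc (0.972), Nfe2l2 to Zfp617 (0.979), Tnks (0.964) and Atf5 (0.962), and Maff to Zfr (0.96), Polr1h (0.951) and Zfp617 (0.949). Keap1 was closest to Zfyve21 (0.967), Tns1 (0.955) and Fam20b (0.954), and Nqo1 to Twsg1 (0.954), Gm2a (0.918) and Ing2 (0.911). The lists do not share a member with each other except Zfp617, which is near both Nfe2l2 and Maff.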

How the data were processed

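RNA of 45 cultures was sequenced by the authors from directional polyadenylated libraries. The deposited values are counts of reads per gene, for which the submitters' processing notes name STAR, RSEM, GRCm38, R 4.2.2 and DESeq2 1.38.3. The values are whole numbers and were used as deposited, and 1438 of the 28454 genes had no count in any library. Totals ranged from 19517859 to 29019988 per library.

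Groups were taken from the sample labels. The 9 genes and all gene lists were chosen with earlier results of these data known. edgeR 4.0.16 in R 4.3.3 was used with TMM scaling, filterByExpr and its quasi-likelihood test (two-sided), with Benjamini-Hochberg adjustment over all genes tested and a threshold of 0.05. A model of 24 libraries had 1 term per line and medium, a model of 30 control libraries had subtype alone, and a model of 6 libraries compared the NDI1 line. Intervals are at 95%. Of each other list, at most 3 rises and 3 falls per line were named, provided that they passed, that mean log2 CPM was 3 or more and that the groups did not overlap. The procedure was tested on simulated data with known changes. Simulated libraries were drawn independently, without an effect shared by cultures of a line. The simulation therefore cannot show how the subtype model behaves when cultures share a line. Alternatives were RLE and upper-quartile scaling, other count filters, a replicate block, DESeq2 1.42.0, limma 3.58.1 (voom) with the line as a block, counts summed per line, and leaving out replicates or lines. Intervals cover the spread between cultures of a line and, in the subtype model, also between lines of a subtype.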

Additional observations from a re-analysis of the deposited data

Results flagged for a closer look

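The responses to cysteine and cystine removal that differed between a pair of lines by the test of the difference itself (edgeR's quasi-likelihood test, adjusted over all genes tested) are collected here, as differences of log2 fold changes. For Myc310 minus MYAZ16.1e they were 0.15 for Nfe2l2, -0.15 for Keap1, 0.43 for Bach1, 0.96 for Maff, -0.46 for Nqo1, 0.92 for Hmox1 and 0.92 for Osgin1. For LM1 minus MYAZ16.1e they were 0.50 for Nfe2l2, 0.94 for Bach1, 0.22 for Mafg, 1.13 for Maff, -0.41 for Nqo1, 1.73 for Hmox1 and 1.52 for Osgin1.

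For LM1-LM minus MYAZ16.1e the differences were 0.58 for Nfe2l2, -0.10 for Nfe2l1, -0.27 for Keap1, 1.06 for Bach1, 0.16 for Mafg, 1.15 for Maff, 1.71 for Hmox1 and 1.29 for Osgin1. For LM1 minus Myc310 they were 0.34 for Nfe2l2, 0.51 for Bach1, 0.15 for Mafg, 0.81 for Hmox1 and 0.60 for Osgin1. Single outlying cultures were not tested.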

How the results depend on the processing

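Of the values for single genes under other settings, 357 of 360 in the deprivation responses, 374 of 405 in the differences between lines, 393 of 459 in the subtype comparisons and 85 of 90 for the NDI1 line kept their direction and their side of the threshold. Calls were lost in 2, 17, 38 and 3 of them, gained in 0, 7, 9 and 0, and the sign turned in 1, 7, 23 and 2, in part together with a gained call. None of the genes whose sign turned under deprivation, between lines or for NDI1 had passed. In the subtype comparisons Mafg turned, and passed in the other direction, in 2 contrasts in which it had passed.

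With single replicate numbers left out, genes called ranged from 2035 to 2438 (3278 with all) for LM1 against Myc310, from 4 to 44 (103 with all) for LM1-LM against LM1, and from 898 to 1326 (2236 with all) for NDI1, where 1 of the 9 genes was called each time. For Myc310 against MYAZ16.1e, 4 to 6 of the 9 were called. Without a filter, 218 genes were called for LM1-LM against LM1. In Myc310, LM and LM-LM against MYAZ, summing counts per line called 1429, 3788 and 4226 genes and 0, 2 and 3 of the 9, while limma-voom with the line as a block called 2819, 4759 and 5054 genes. With only the 4 lines that were also deprived, 8 of the 9 were called in Myc310. The causes of these shifts were not tested.

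Signs turned as follows. Upper-quartile scaling gave -0.01 for Nfe2l1 and -0.02 for Keap1 in LM1 against Myc310, where it moved the median of all genes by -0.04. Over single replicate numbers left out, Nqo1 ran from -0.19 to 0.03 for deprivation in MYAZ16.1e and from -0.01 to 0.15 for LM1 against Myc310. In LM1-LM against LM1, Maff ran from 0 to 0.03, Nqo1 from -0.03 to 0.21 and Hmox1 from -0.09 to 0.04, and for NDI1 Keap1 ran from -0.09 to 0 and Osgin1 from -0.06 to 0.02. Osgin1 in LM, at 0.00 in the report, was -0.01 with RLE or upper-quartile scaling and DESeq2, -0.02 with at least 10 counts in every library and -0.05 with voom, and ran from -0.04 to 0.06 without a replicate number and from -0.28 to 0.30 without a line. Without a line, Nfe2l1 lay between -0.04 and 0.06 (Myc310), -0.02 and 0.08 (LM), and -0.03 and 0.07 (LM-LM), and Osgin1 between -0.27 and 0.03 (Myc310). With only these 4 lines, 1 per subtype, Nfe2l1 was -0.05, -0.09 and -0.05 and Mafg -0.14, -0.12 and -0.13 in Myc310, LM and LM-LM, and Osgin1 was 0.33 in Myc310 and -0.46 in LM.

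Cultures with the same replicate number did not deviate together (correlations of deviations from -0.0532 to 0.0451), so the numbers do not pair the samples. With the replicate number as a block, 7142, 8938, 9494 and 9661 genes were called for deprivation from MYAZ16.1e to LM1-LM, with 8, 9, 9 and 9 of the 9 genes, and the 1 call lost was Mafg in LM (0.15, adjusted p = 0.0549). Nqo1 had the fewest reads of the 9 genes, 50 to 528 per library.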
